A study of Homo sapiens with 16 samples.

Results

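The 42 genes described here encode the glucose and lactate transporters, the glycolytic enzymes, the kinases that set glycolytic flux, the subunits and oxygen sensors of the hypoxia-inducible factor (HIF), and a set of its targets. They were found by gene symbol among the 33121 entries of the deposited count table. Of the 42, 40 had enough reads to be tested. The other two, CA9 (a cell-surface carbonic anhydrase) and EGLN2 (a HIF prolyl hydroxylase), were at or near 0 in all 16 libraries. CA9 ran from 0 to 0.561 CPM (the gene's counts scaled to a common library size) and EGLN2, which a readthrough transcript, RAB4B-EGLN2, overlaps, from 0 to 0.364 CPM. A count of 3 is worth 0.182 to 0.187 CPM in these libraries.

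RNA was sequenced from HAP1, a near-haploid human cell line derived from a chronic myeloid leukaemia, in 4 groups of 4 libraries. The first pair of groups is cells with a deletion of SLC30A10, a manganese exporter of the cell surface, and their SLC30A10+/+ control cells (the SLC30A10 control set). The second pair is cells that lack another gene (the second knockout) with controls of their own (the second control set). By the labels the control cells of both experiments are 1 line, while the deletions have separate line identifiers, so each deletion may stand for a single edited line. The labels give no agent for any of the 4 groups, and all were grown alike, in serum-containing medium in an incubator with 10% CO2. The oxygen level, the density of the cells and the dates are not given in the labels. Nothing in the labels says that the 4 libraries of a group came from separate cultures, so p-values measure the spread between these libraries, which may be technical.

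Glycolysis turns glucose into pyruvate in the cytosol and yields ATP without oxygen, and lactate dehydrogenase then turns pyruvate into lactate, which leaves through monocarboxylate transporters. HIF is a pair of an alpha subunit (HIF1A or EPAS1) and ARNT. When oxygen is present, the EGLN hydroxylases, which need iron and oxygen, mark the alpha subunit on prolines, VHL binds the mark and the subunit is degraded, so that HIF is controlled largely at the protein level, which was not measured. HIF that escapes this binds the letters ACGTG or GCGTG in gene control regions and raises many glycolytic genes together with EGLN3, EGLN1 and the targets described here.

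The libraries held 16058856 to 16648151 counts each. SLC30A10 itself had 3 to 11 counts in the SLC30A10 knockout libraries and 6 to 9 in their controls, a log2 difference of -0.11 (two-sided exact permutation test, p = 0.571, smallest possible 0.0286). At that depth the count cannot check the deletion. Of 10 blood lineage markers none passed 1 CPM in any library. HBG1, HBG2, MPO and CD3E were at 0 in all groups, and the summed level of the list ran from 0.124 to 0.872 CPM in the SLC30A10 knockout, 0.305 to 0.854 in its controls, 0.245 to 0.363 in the second knockout and 0.182 to 0.603 in its controls. The epithelial keratins KRT8 and KRT18 and the fibroblast collagen COL1A1 passed 1 CPM in all groups. The summed level of 6 epithelial markers, of which KRT19 and KRT5 were at 0, ran from 56.7 to 64.1 CPM in the SLC30A10 knockout and 47.8 to 55.5 in its controls, and from 37.0 to 40.4 in the second knockout and 46.6 to 51.5 in its controls. Of the 3 markers tested, KRT8 and KRT18 rose in the SLC30A10 knockout (0.36 ± 0.10 and 0.26 ± 0.06, SE) while EPCAM fell, from 1.22 ± 0.396 CPM (SD, n = 4) to 0.263 ± 0.0316. KRT8 and KRT18 fell in the second knockout (-1.35 ± 0.13 and -0.22 ± 0.06). The part of these markers in the results was not tested.

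Levels of different genes are compared here per kilobase of exon (CPM per kb). In the SLC30A10 control set GAPDH, which oxidises glyceraldehyde 3-phosphate, was highest at 1151 ± 49.997 (SD, n = 4). The next were ENO1 (enolase) at 462 ± 8.30, LDHB (the lactate dehydrogenase subunit of heart muscle) at 367 ± 5.56, TPI1 (triose phosphate isomerase) at 362 ± 9.41 and PKM (pyruvate kinase) at 341 ± 10.8 CPM per kb. LDHB and TPI1 do not differ beyond their spread. The genes of the HIF system sat far lower, with HIF1A at 24.2 ± 0.846, EGLN1 at 9.77 ± 0.959, ARNT at 9.13 ± 0.348 and EGLN3 at 6.47 ± 0.663 CPM per kb. EPAS1, the second alpha subunit, was the lowest of the tested members at 0.286 ± 0.0722, below the targets NDRG1 at 0.578 ± 0.176 and ANKRD37 at 1.33 ± 0.306 CPM per kb. Many of the abundant glycolytic genes, GAPDH, PGK1, ENO1, LDHA, TPI1 and PKM among them, have processed pseudogenes, and their levels are uncertain to the extent that the counting split reads between copies. GPI also has a numbered second entry in the table.

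**Figure D1:**
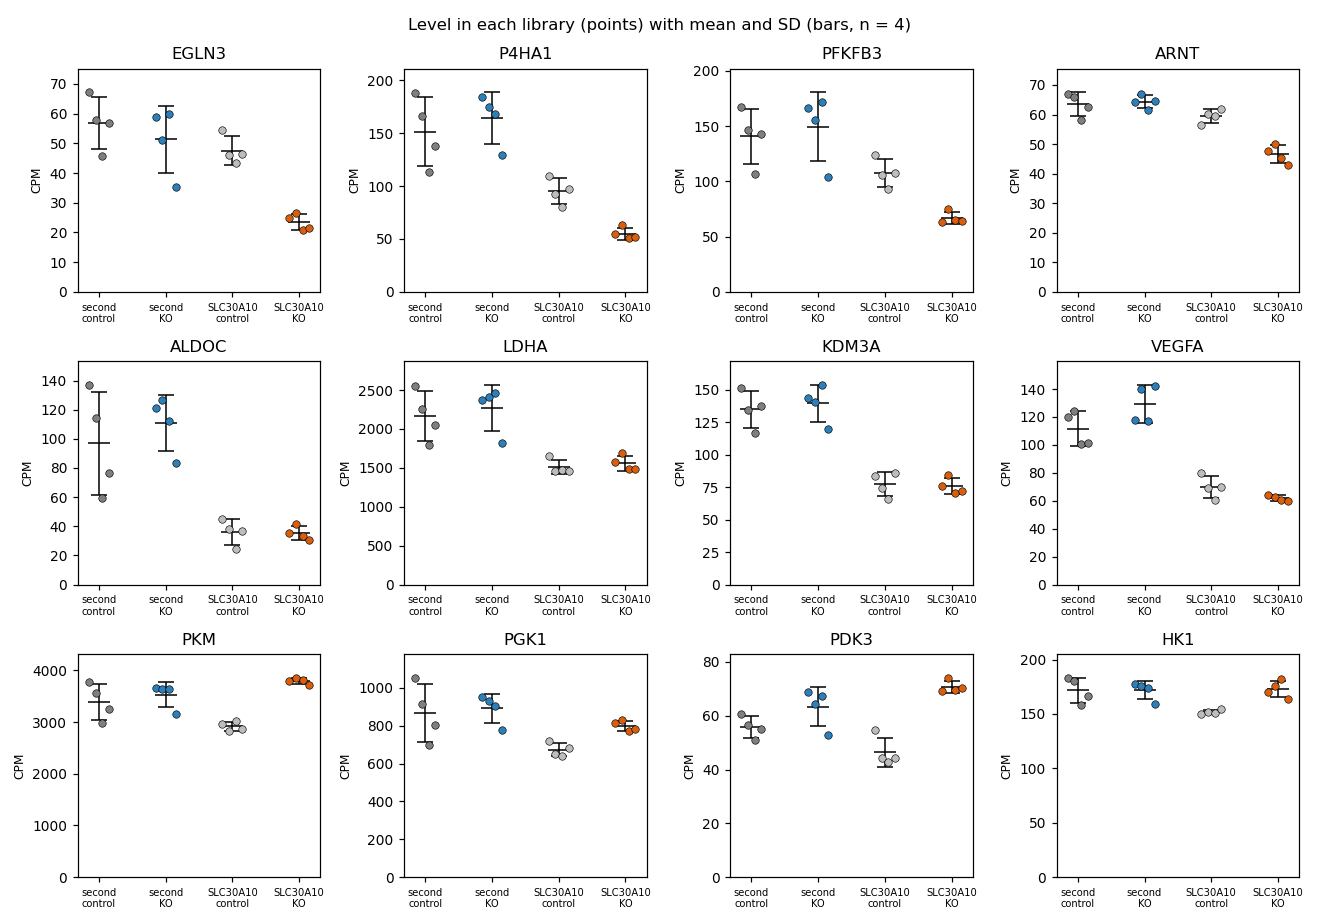
Level of 12 members in CPM (linear axes from 0), with a point for each of the 4 libraries of a group and bars at the mean and SD. The SLC30A10 knockout points of EGLN3, P4HA1 and PFKFB3 lie below those of all other groups, and those of PKM and PDK3 lie above their own controls.

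In the SLC30A10 knockout 19 of the 40 tested members passed the threshold (adjusted p under 0.05, edgeR's quasi-likelihood test with Benjamini-Hochberg adjustment over all 15569 tested genes). Over all genes 41.4% passed, so the share among the members is near the background. The direction was uneven: 14 members fell, where 20.2% of all genes did, and 5 rose, where 21.2% of all genes did. The median log2 fold change was -0.11 over the members and -0.0048 over all genes. The groups did not overlap for 17 members, beside 38.3% of all genes. Changes were mostly small. Only EGLN3, P4HA1, PFKFB3, PDK3 and SLC2A3, 5 of the 40, passed the threshold with a log2 fold change of at least 0.5 in size, beside 12.7% of all genes. Counting both control sets as the controls changed the balance to 2 higher and 22 lower members, in a fit that called 32.1% of all genes. That fit also carries the difference between the control sets, where 29 of the 40 members were lower in the SLC30A10 set and 0 higher. Its balance is therefore not a separate measure of the knockout.

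The member that fell most was EGLN3, a HIF prolyl hydroxylase that is itself a HIF target (RefSeq GRCh38.p14, chr14:33924227-33951074, minus strand). Its 4 knockout libraries held 25.0, 26.5, 20.8 and 21.6 CPM and their controls 54.6, 46.0, 43.2 and 46.6 CPM. No knockout library reached the lowest control. The log2 fold change was -1.02 ± 0.13 (SE), or 2.03-fold lower (adjusted p = 3.21e-07). The second control set, at 67.1, 57.9, 45.6 and 56.7 CPM, overlapped the SLC30A10 controls. In bulk samples such as these, fewer cells with a transcript and less of it per cell cannot be told apart.

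P4HA1, the catalytic subunit of the collagen prolyl hydroxylase (chr10:73007217-73096866, minus strand), stood at 55.0, 62.9, 50.6 and 51.6 CPM in the knockout libraries. Its controls held 109.8, 92.7, 80.4 and 97.6 CPM, again without overlap. It fell by 0.79 ± 0.12 on the log2 scale, 1.73-fold (adjusted p = 7.37e-06). Its partner isozyme P4HA2 did not pass, at 23.6, 27.3, 24.3 and 23.8 CPM in the knockout and 26.4, 26.04, 22.1 and 25.97 CPM in the controls (log2 fold change -0.02 ± 0.08, adjusted p = 0.839). An antisense transcript, P4HA2-AS1, lies at that gene, and the use of strand in counting is not given in the sources used here.

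PFKFB3, which makes the fructose 2,6-bisphosphate that speeds phosphofructokinase (chr10:6144921-6326637, plus strand), was at 63.1, 74.6, 65.4 and 64.3 CPM in the knockout. The controls were at 123, 106, 92.6 and 108 CPM. Every knockout library was lower than every control, and the gene fell by 0.68 ± 0.12 on the log2 scale, 1.61-fold (adjusted p = 5.54e-05). The related kinase PFKFB4 was at 21.9, 26.5, 18.0 and 19.1 and 36.5, 27.0, 19.2 and 27.9 CPM, overlapping, with a log2 fold change of -0.37 ± 0.19 that did not pass (adjusted p = 0.117).

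The promoters of these genes are shown because they are the 3 members that fell most, and because HIF is known to bind the letters marked in them. Each is the stretch of 250 bases before an annotated start, from RefSeq GRCh38.p14, written 5′ to 3′ on the strand of the gene, with ACGTG and GCGTG, on either strand, in capitals. EGLN3, whose RNA fell most, holds no such letters in this window (chr14:33951075-33951324, minus strand). P4HA1 (chr10:73096867-73097116, minus strand) holds them. So do the first start of PFKFB3 (chr10:6144671-6144920, plus strand), with 1 GCGTG match, and its second start (chr10:6202682-6202931, plus strand). The second start is the one printed.
EGLN3: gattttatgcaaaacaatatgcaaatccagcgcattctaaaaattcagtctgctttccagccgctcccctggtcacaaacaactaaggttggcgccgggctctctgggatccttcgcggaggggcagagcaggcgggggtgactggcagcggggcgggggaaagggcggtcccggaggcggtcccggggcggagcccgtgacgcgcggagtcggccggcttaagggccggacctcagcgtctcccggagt
P4HA1: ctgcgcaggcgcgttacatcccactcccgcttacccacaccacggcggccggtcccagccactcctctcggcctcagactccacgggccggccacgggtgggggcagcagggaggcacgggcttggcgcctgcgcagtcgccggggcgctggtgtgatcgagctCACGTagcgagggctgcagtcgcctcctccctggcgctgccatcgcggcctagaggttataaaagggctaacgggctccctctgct
PFKFB3: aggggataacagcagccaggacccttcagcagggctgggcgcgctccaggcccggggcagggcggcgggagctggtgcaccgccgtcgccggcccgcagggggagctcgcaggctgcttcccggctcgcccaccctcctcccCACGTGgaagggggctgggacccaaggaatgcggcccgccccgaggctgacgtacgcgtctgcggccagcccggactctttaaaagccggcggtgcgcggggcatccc
Promoters were on hand for 37 of the 42 members, and SLC2A3, SLC16A1, VHL, VEGFA and NDRG1 were without one. Over the 68 starts of those members, 24 (35.3%) held ACGTG on either strand, where 18.5% of all 35116 starts did. GCGTG was in 32.4% of the members' starts and 32.2% of all. The palindrome CACGTG, which contains ACGTG on both strands, was in 11.8% and 6.34%. Starts of a gene can overlap, so they are not independent, and a match is only a description of the letters.

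The members that rose in the SLC30A10 knockout were led by PDK3, a kinase that turns off pyruvate dehydrogenase (chrX:24465286-24550466, plus strand). Its knockout libraries held 69.2, 74.1, 69.6 and 70.2 CPM and their controls 54.5, 44.3, 42.7 and 44.1 CPM, with no overlap. It rose by 0.61 ± 0.07 on the log2 scale, 1.52-fold (adjusted p = 2.00e-07). The sister kinase PDK1, a well-known HIF target, was at 41.9, 51.1, 37.2 and 38.5 CPM in the knockout and 60.7, 45.2, 35.6 and 48.8 CPM in the controls and did not pass (log2 fold change -0.17 ± 0.15, adjusted p = 0.373). The log2 ratio of PDK1 to PDK3 counts was -0.76 ± 0.17 (SD, n = 4) in the knockout and 0.02 ± 0.20 in its controls, a value within this pair of genes and not per length.

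PKM, whose product makes pyruvate and ATP in the last step of glycolysis (chr15:72199029-72231591, minus strand), was at 3799, 3857, 3824 and 3713 CPM in the knockout. Its controls were at 2960.5, 2823, 3026 and 2865 CPM, all below the lowest knockout library. It rose by 0.38 ± 0.05, 1.30-fold (adjusted p = 1.63e-06). Counts are per gene symbol, so its splice forms were not told apart. PGK1, the phosphoglycerate kinase, which makes the first ATP of the pathway (chrX:78104248-78129295, plus strand), was at 815, 828, 773 and 783 CPM against 718, 653, 642 and 681 CPM. It rose by 0.25 ± 0.08 (adjusted p = 0.0115). HK1, the broadly expressed hexokinase, was at 169.9, 175, 182 and 164 CPM against 150.1, 152, 151 and 155 CPM, and rose by 0.19 ± 0.05 (adjusted p = 0.00185). With both control sets as the controls, PGK1 and HK1 no longer passed, with log2 fold changes of 0.05 and 0.10.

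PDK3 and PGK1 share a chromosome, X. Of 496 tested genes there, 345 rose and 28 fell in the SLC30A10 knockout, with a median log2 fold change of 0.36. Among the 20 tested genes nearest to PDK3, 14 rose and the median was 0.38. Around PGK1 11 of 20 rose (median 0.20). PKM, on chromosome 15, had 8 of 20 neighbours that rose and 3 that fell (median 0.14). The neighbours of EGLN3, P4HA1 and PFKFB3 had medians of -0.01, -0.11 and -0.11. Of 20 each, 3 rose and 4 fell around EGLN3, 3 rose and 8 fell around P4HA1, and 3 rose and 9 fell around PFKFB3. The part of the chromosome or neighbourhood in these changes was not tested. Of all 35116 starts, 43.2% hold ACGTG or GCGTG on either strand, and the listed start of PKM holds neither. The promoters of PDK3 and PGK1 hold such letters, shown as before (PDK3 chrX:24465036-24465285, plus strand, and PGK1 chrX:78103998-78104247, plus strand).
PDK3: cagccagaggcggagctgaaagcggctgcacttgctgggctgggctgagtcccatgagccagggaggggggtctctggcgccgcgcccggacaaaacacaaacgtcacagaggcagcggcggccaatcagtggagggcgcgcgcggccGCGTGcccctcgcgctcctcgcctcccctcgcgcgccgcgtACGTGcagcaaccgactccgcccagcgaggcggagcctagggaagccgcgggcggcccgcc
PGK1: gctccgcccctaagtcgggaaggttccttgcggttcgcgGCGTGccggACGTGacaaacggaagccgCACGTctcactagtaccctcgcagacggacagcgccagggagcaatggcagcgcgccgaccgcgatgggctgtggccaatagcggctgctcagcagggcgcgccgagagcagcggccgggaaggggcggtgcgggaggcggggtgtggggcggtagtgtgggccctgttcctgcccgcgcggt

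**Figure D2:**
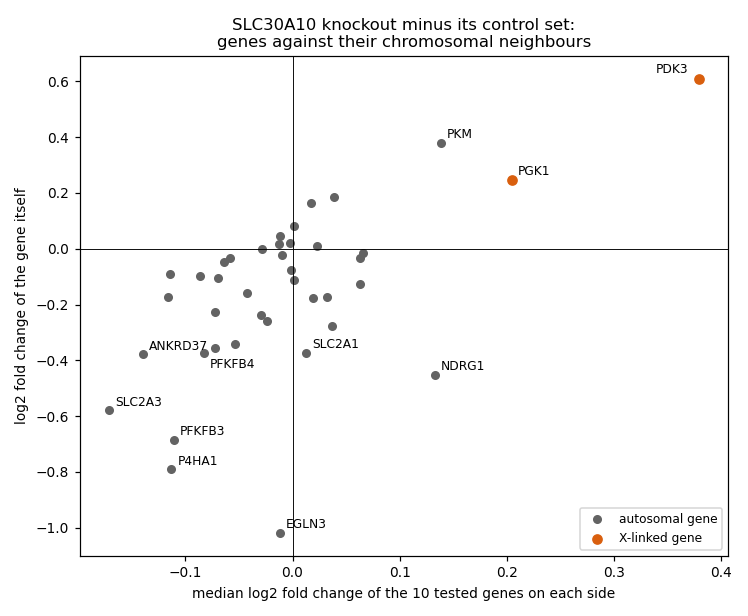
Log2 fold change in the SLC30A10 knockout of members and of the 10 tested genes on each side of them, as 1 point per member: the median of its neighbours on the x axis and its own value on the y axis, with X-linked genes in orange. PDK3 sits at a neighbour median of 0.38, and EGLN3, the lowest point, at -0.01.

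Of the 17 glycolytic enzymes, 5 (29.4%) fell, beside 20.2% of all genes, with log2 fold changes from -0.26 to -0.10. The 3 that rose (17.6%, beside 21.2% of all genes) were PKM, PGK1 and HK1, described above. HK2, the hexokinase of insulin-responsive and tumour cells, fell by 0.26 ± 0.07 (adjusted p = 0.00547), from 198, 176, 181 and 186 CPM in the controls to 152, 172, 146 and 149 CPM. The log2 ratio of HK1 to HK2 moved from -0.29 ± 0.08 (SD, n = 4) to 0.16 ± 0.12, and no library of the groups overlapped. GPI, the glucose 6-phosphate isomerase, fell by 0.23 ± 0.07 (adjusted p = 0.00808), at 468 to 486 CPM in the knockout and 538 to 581 CPM in the controls, without overlap. ALDOA (aldolase A) fell by 0.17 ± 0.06, GAPDH by 0.16 ± 0.05 and PFKP (the platelet phosphofructokinase) by 0.10 ± 0.04, with adjusted p = 0.0258, 0.0214 and 0.0383. These 3 calls were lost without certain libraries. ALDOA lost its call without knockout library 1 or 4 or control library 1 (adjusted p up to 0.0724), and GAPDH without knockout library 4 or control library 3 (up to 0.0721). PFKP lost its call without knockout library 1, 2 or 4 or control library 1, 2 or 4 (up to 0.0898), and without a filter on low counts (0.0775). ENO1, TPI1, PGAM1, ENO2, LDHA, LDHB, PFKL, PFKM and ALDOC did not pass. ALDOC, the brain aldolase, was at 35.1, 41.6, 33.5 and 30.9 CPM in the knockout and 45.3, 37.9, 24.1 and 37.1 CPM in the controls, and LDHA at 1571, 1690.0, 1480.5 and 1491 and 1648, 1463, 1474 and 1457 CPM.

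Among the 4 transporters 3 fell, where 20.2% of all genes did. SLC2A1, the main glucose transporter of most cells, was at 67.8, 64.5, 64.7 and 66.7 CPM against 85.3, 80.7, 92.0 and 83.4 CPM without overlap, and fell by 0.37 ± 0.08 (adjusted p = 0.000394). SLC2A3, a high-affinity glucose transporter, was at 5.78, 9.63, 6.25 and 7.35 CPM against 13.4, 11.0, 7.56 and 11.4 CPM, with overlap. It fell by 0.58 ± 0.19 (adjusted p = 0.0147), a call that was lost without knockout library 1 (adjusted p = 0.0599), without knockout library 3 (0.0517) and without control library 1 (0.0722). SLC16A1, a lactate transporter, fell by 0.09 ± 0.04 at the edge of the threshold (adjusted p = 0.0498). Its call was lost in 6 of the 8 fits that each left out 1 library (knockout 1, 3 and 4 and control 1, 2 and 3, adjusted p = 0.0507 to 0.165). The call also ended with both control sets as the controls (0.240) and without a filter on low counts (0.101). It ended too with the replicate number as a block (0.0637) and with only the libraries compared (0.0531). SLC16A3, the lactate exporter of glycolytic cells, did not pass at -0.13 ± 0.11, and it overlaps CSNK1D.

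Of the HIF subunits, ARNT fell. It was at 47.7, 50.1, 45.4 and 42.9 CPM in the knockout and 56.4, 60.3, 59.5 and 61.8 CPM in the controls, a fall of 0.36 ± 0.05 (adjusted p = 6.86e-06), with no overlap. HIF1A was at 116, 125, 122 and 120.0 CPM and 127, 123, 129 and 119 CPM, with a log2 fold change of -0.05 ± 0.04 that did not pass (adjusted p = 0.396). EPAS1 was at 1.18, 1.80, 2.39 and 1.49 CPM and 1.95, 2.79, 2.07 and 1.52 CPM, and its change of -0.28 ± 0.23 did not pass either (adjusted p = 0.359). Of the 4 sensors tested EGLN1, the main HIF prolyl hydroxylase, fell by 0.24 ± 0.07 (adjusted p = 0.00684), at 59.0, 66.5, 57.0 and 58.2 against 80.04, 66.5, 64.6 and 72.9 CPM, with overlap. VHL, the ubiquitin ligase subunit, rose by 0.16 ± 0.05 (adjusted p = 0.0103), at 134, 136, 136 and 139 against 125, 124, 115 and 122 CPM without overlap. It no longer passed with both control sets as the controls (log2 fold change 0.10, adjusted p = 0.171). HIF1AN, which hydroxylates an asparagine of HIF, was at 65.0 to 68.6 CPM and 69.5 to 79.2 CPM (adjusted p = 0.0687).

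Of 8 tested HIF targets, 2 (25%) fell in the SLC30A10 knockout, near the 20.2% of all genes that did. None rose, where 21.2% of all genes did. These 8 leave out members counted under other roles that are also described here as raised by HIF. Of those, EGLN3 and EGLN1 fell, and PDK1 and LDHA did not pass. The share therefore depends on how members were assigned to roles. P4HA1 is described above. ADM, a vasodilator peptide, was at 6.53, 7.95, 6.499 and 6.72 CPM against 7.92, 8.44, 10.24 and 8.47 CPM, overlapping in 1 knockout library, and fell by 0.34 ± 0.11 (adjusted p = 0.0150), a call lost without control library 3 (-0.26, adjusted p = 0.0727). The rest did not pass: VEGFA (the angiogenic growth factor) at -0.18 ± 0.08, NDRG1 at -0.45 ± 0.21, ANKRD37 at -0.38 ± 0.19, KDM3A (a histone demethylase) at -0.03 ± 0.08 and MXI1 (a MYC antagonist) at 0.02 ± 0.09.

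**Figure D3:**
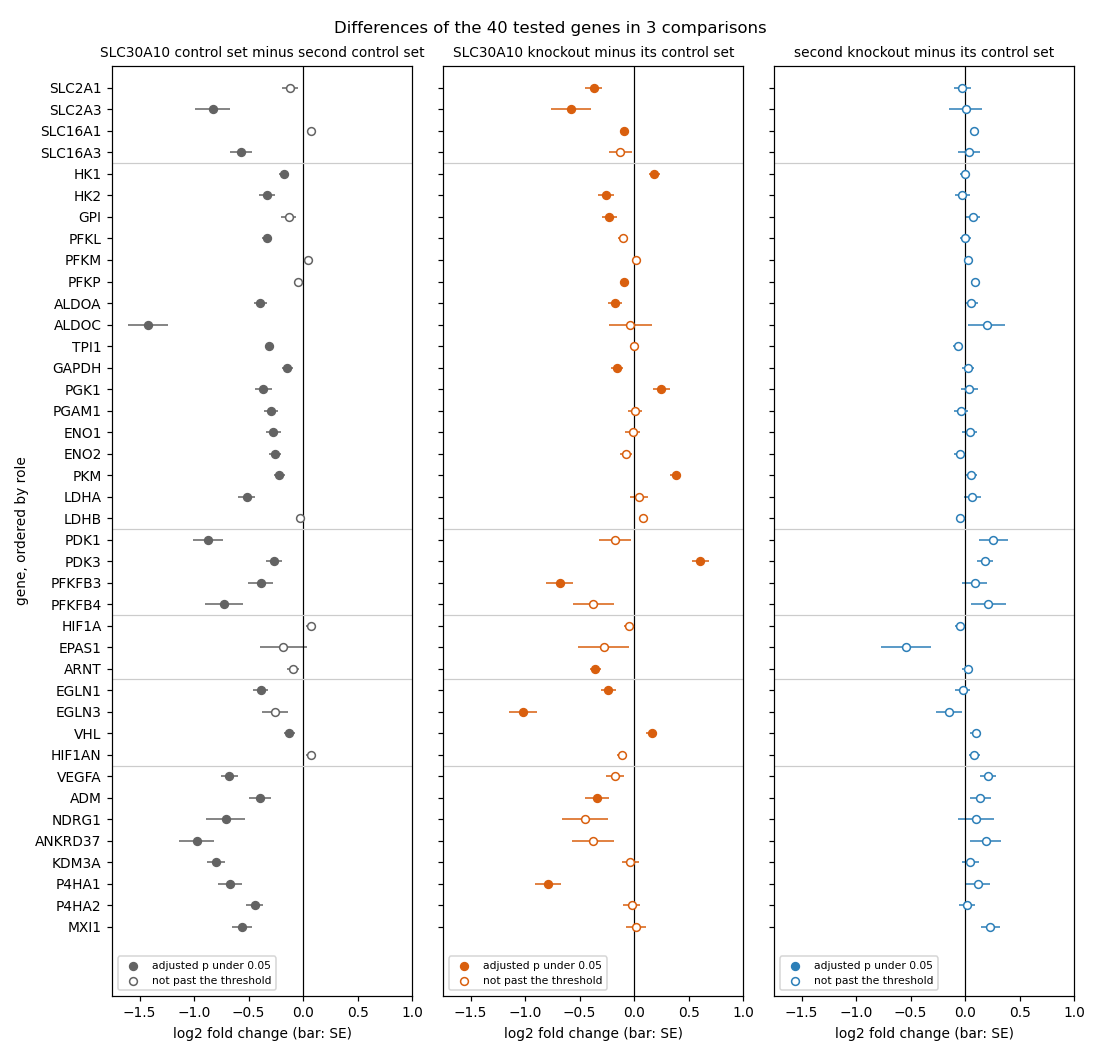
Log2 fold change with its standard error for each tested member in the SLC30A10 knockout, in the second knockout, and between the control sets (SLC30A10 control set minus second control set). Filled points passed the threshold and open points did not. The control set differences lie at or below 0.07, and every second knockout point is open.

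In the second knockout none of the 40 tested members passed the threshold, where 13.7% of all genes did, 6.67% higher and 7.03% lower, and 4.99% with a log2 fold change of at least 0.5 in size. DESeq2 also called 0 of 40, beside 12.7% of all genes. At an unadjusted p under 0.05 there were 6 members, and the share of all genes at that threshold is not given. The median log2 fold change was 0.0457, beside -0.0024 over all genes, and 29 of the 40 values were above 0. Groups did not overlap for 1 member, beside 16.3% of all genes. The lowest adjusted p was that of VEGFA, at 118, 139.7, 117 and 142 CPM in the knockout and 120.0, 125, 101 and 101 CPM in its controls (0.21 ± 0.07, adjusted p = 0.0554). EGLN3 was at 58.9, 51.1, 59.9 and 35.4 CPM against 67.1, 57.9, 45.6 and 56.7 CPM (-0.15 ± 0.12), P4HA1 at 184, 175, 169 and 129 against 188, 166, 114 and 138 CPM (0.12 ± 0.11) and PDK3 at 68.8, 64.2, 67.3 and 53.0 against 60.6, 56.7, 50.8 and 55.2 CPM (0.18 ± 0.07, adjusted p = 0.105). HIF1A was at 123, 116, 108 and 113 and 119.7, 115, 123 and 118 CPM, ARNT at 64.2, 67.0, 61.7 and 64.7 and 67.1, 66.0, 58.1 and 62.5 CPM and EPAS1 at 2.24, 1.96, 1.27 and 1.03 and 2.51, 2.55, 2.23 and 2.19 CPM. EPAS1 had the largest value, -0.54 ± 0.23, at a low level (adjusted p = 0.123). EGLN1 was at 95.5, 94.1, 97.7 and 79.1 and 102, 91.8, 88.6 and 90.2 CPM and VHL at 128, 138, 143 and 158 and 123, 135, 138 and 135 CPM.

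Individual libraries of the second experiment stood apart on these genes. In the second control set, library 3 had the lowest level for 35 of the 40 tested members and library 1 the highest for 33. In the second knockout, library 4 was lowest for 31 of 40. The median deviation from the group mean was -0.19 on the log2 scale for that control library and -0.21 for that knockout library. Among glycolytic enzymes alone the control library was lowest for 17 of 17 and the knockout library for 15 of 17. Ranks over all tested genes are not given, so these counts do not show whether the libraries stand apart beyond the members. Without those 2 libraries together the count of members called was 1, beside 9.89% of all genes. Leaving out each library of the experiment in turn gave 0 to 3, beside 9.99% to 13.7% of all genes. The count of 3 came without knockout library 1 or 4. In the SLC30A10 experiment the pattern was weaker: control library 3 was lowest for 21 of 40 and knockout library 2 highest for 25 of 40. The part of these libraries in the values of the second knockout was otherwise not tested.

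**Figure D4:**
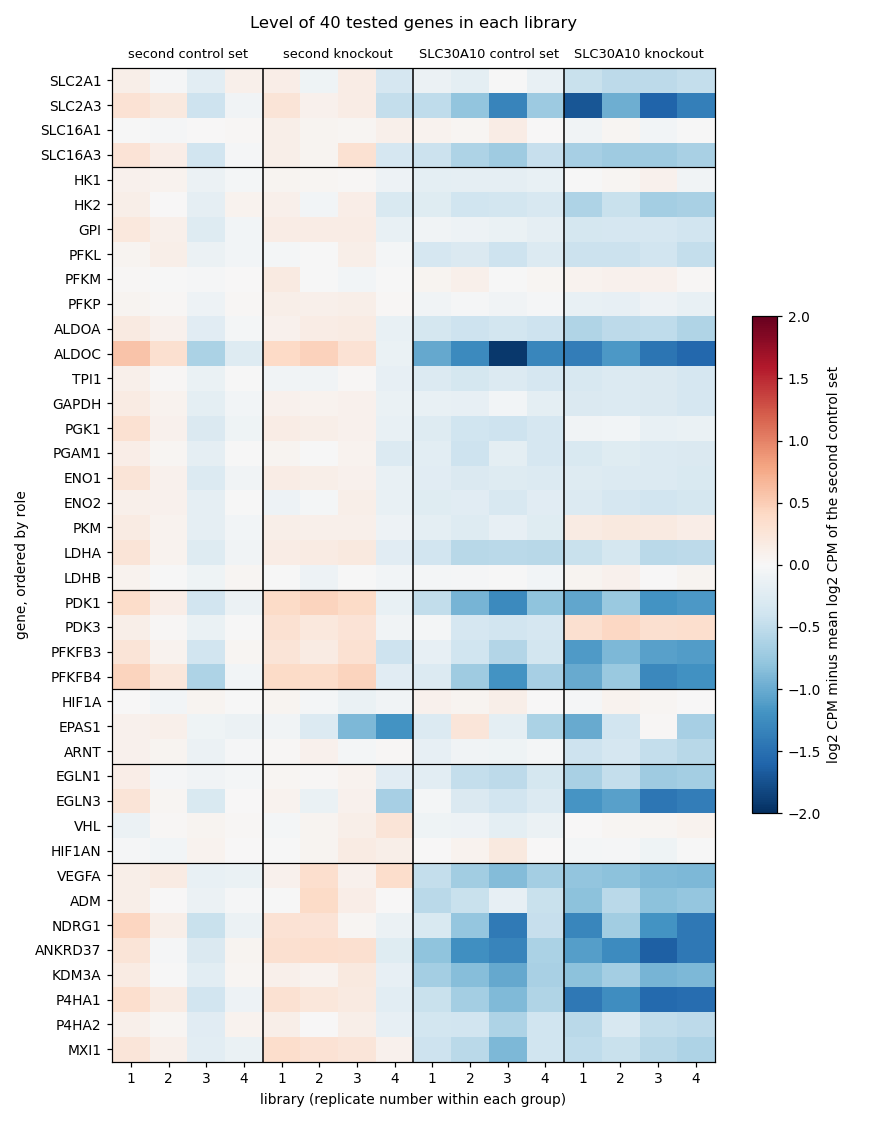
Log2 level of each tested member in each of the 16 libraries, minus its mean log2 level in the second control set, as a colour from blue (lower) to red (higher), with members in rows by role and libraries in columns by group. Library 3 of the second control set is lowest of its group for 35 of 40 members, and all 8 HIF targets are lower on average in the SLC30A10 controls than in the second controls.

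The 2 knockouts were compared by the difference of their log2 fold changes, SLC30A10 minus second. It passed the threshold for 15 of 40 members, where 31.3% of all genes passed. Of these 15, 3 were higher, beside 16.7% of all genes, and 12 were lower, beside 14.6%. A size of at least 0.5 was reached by 3 of the 15, beside 13.4% of all genes. The 12 lower were led by P4HA1 (-0.91 ± 0.16), EGLN3 (-0.87 ± 0.17), PFKFB3 (-0.77 ± 0.17) and ADM (-0.48 ± 0.15), with adjusted p = 0.000104, 0.000296, 0.000788 and 0.0135. PDK3 (0.43 ± 0.10, adjusted p = 0.00236), PKM (0.32 ± 0.07, adjusted p = 0.00136) and HK1 (0.19 ± 0.06, adjusted p = 0.0285) were the 3 higher. VEGFA passed in this difference (-0.39 ± 0.11, adjusted p = 0.00702) although neither knockout called it alone. Leaving out 1 library at a time ended the call of HK1 for SLC30A10 knockout 2 or 3, SLC30A10 control 1 or 2, second control 1 or 2 and second knockout 4 (adjusted p up to 0.0866). The call of ALDOA ended for 10 of the 16 libraries (up to 0.0960), and that of HIF1AN for SLC30A10 knockout 3, SLC30A10 control 3, second control 2 and second knockout 3 (up to 0.0673). The control groups of the 2 experiments also differ from each other, as follows, and each contrast is within its own experiment.

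Most members differed between the 2 sets of control cells, and in a common direction. Of 40 tested members 29 were lower in the SLC30A10 set than in the second, where 20.8% of all genes were. None was higher, where 18.5% of all genes were (39.3% passed in either direction). At an unadjusted p under 0.05 there were 30 members in all, and the share of all genes at that threshold is not given. The median log2 difference, SLC30A10 control set minus second, was -0.32 over the members and -0.0061 over all genes. The groups did not overlap for 20 members, beside 36.3% of all genes. A difference of at least 0.5 in size was found for 12, beside 7.77% of all genes. This comparison also spans the experiments, and experiment and control set cannot be told apart. The control libraries enter the knockout comparisons too, so these values are given side by side and their likeness was not tested.

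All 8 tested HIF targets, all 4 regulatory kinases and 13 of 17 enzymes were lower in the SLC30A10 control set, where 20.8% of all genes were. So were 2 of 4 transporters, 2 of 4 sensors and 0 of 3 HIF subunits. EGLN3, a HIF target counted with the sensors, did not pass. ALDOC differed most. It was at 45.3, 37.9, 24.1 and 37.1 CPM in the SLC30A10 control set and 137, 114, 59.5 and 76.7 CPM in the second, without overlap, a log2 difference of -1.42 ± 0.18, 2.68-fold (adjusted p = 1.56e-06). ANKRD37, an ankyrin-repeat HIF target, was at 3.84, 2.85, 2.68 and 4.33 and 7.95, 6.61, 5.48 and 6.93 CPM (-0.97 ± 0.16, adjusted p = 3.43e-05). PDK1 was at 60.7, 45.2, 35.6 and 48.8 and 110.1, 93.5, 65.8 and 79.3 CPM (-0.87 ± 0.14, adjusted p = 2.92e-05). None of these 3 pairs of groups overlapped.

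KDM3A was at 83.5, 74.5, 66.2 and 85.7 CPM in the SLC30A10 control set and 151, 134, 116 and 138 CPM in the second (-0.80 ± 0.08, adjusted p = 4.11e-08). VEGFA was at 80.2, 68.8, 60.7 and 69.6 CPM against 120.0, 125, 101 and 101 CPM (-0.68 ± 0.08, adjusted p = 2.28e-07). Both were separated in every library. NDRG1 differed by -0.71 ± 0.18, P4HA1 by -0.67 ± 0.11, MXI1 by -0.56 ± 0.09, P4HA2 by -0.44 ± 0.08 and ADM by -0.40 ± 0.10. PFKFB4 differed by -0.73 ± 0.17 and PFKFB3 by -0.39 ± 0.12, the latter lost without second control library 1 (-0.29, adjusted p = 0.0613) and under DESeq2 (adjusted p = 0.0517). Of the sensors, EGLN1 differed by -0.39 ± 0.07 and VHL by -0.13 ± 0.05, while EGLN3 (-0.26 ± 0.12) and HIF1AN (0.07 ± 0.05) did not pass. The call of VHL ended with other scalings, under DESeq2 and without any 1 of the control libraries other than second control library 1 (adjusted p up to 0.164). DESeq2 called 26 members in all, beside 36.8% of all genes.

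LDHA, the lactate dehydrogenase subunit that HIF raises, was at 1648, 1463, 1474 and 1457 CPM against 2558, 2259, 1795 and 2047 CPM (-0.52 ± 0.08, adjusted p = 1.99e-05), while LDHB did not pass at -0.03 ± 0.04. The log2 ratio of LDHA to LDHB was 0.46 ± 0.09 (SD, n = 4) in the SLC30A10 control set and 0.94 ± 0.16 in the second. SLC2A3 differed by -0.83 ± 0.16 and SLC16A3 by -0.57 ± 0.10, whereas SLC2A1 (-0.12 ± 0.08) and SLC16A1 (0.07 ± 0.04) did not pass. Smaller differences were found for ALDOA (-0.39 ± 0.06), PGK1 (-0.36 ± 0.08), HK2 (-0.33 ± 0.07), PFKL (-0.33 ± 0.05), TPI1 (-0.31 ± 0.04), PGAM1 (-0.29 ± 0.06), ENO1 (-0.27 ± 0.07), ENO2 (-0.26 ± 0.05), PKM (-0.22 ± 0.05) and HK1 (-0.18 ± 0.05). PDK3, described above, differed by -0.27 ± 0.08. GAPDH (-0.14 ± 0.05) lost its call with size factors, under DESeq2, with a mean count of at least 50 (adjusted p = 0.0595) and with only the libraries compared (0.0719). It also lost it without SLC30A10 control library 1, 2 or 4 or second control library 1 or 2, and the difference without second control library 1 was -0.08 (adjusted p = 0.252). HIF1A (0.07 ± 0.04), EPAS1 (-0.18 ± 0.22) and ARNT (-0.09 ± 0.05), the RNAs of the factor itself, did not pass.

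By their promoters, 25 of the 29 members that were lower had an entry, and 16 of those held ACGTG on either strand in at least 1 start. Of the 11 tested members that did not pass, 10 had an entry and 3 of those, GPI, PFKM and PFKP, held it. These counts are per gene over all of its listed starts, and genes differ in how many starts they have. The share of all genes counted in this way is not given, and the shares above are per start. No test was made of this difference. The promoters of ALDOC (chr17:28576896-28577145, minus strand) and LDHA (chr11:18394313-18394562, plus strand), shown because these are the aldolase and dehydrogenase with the largest control set differences of their kind, hold several matches.
ALDOC: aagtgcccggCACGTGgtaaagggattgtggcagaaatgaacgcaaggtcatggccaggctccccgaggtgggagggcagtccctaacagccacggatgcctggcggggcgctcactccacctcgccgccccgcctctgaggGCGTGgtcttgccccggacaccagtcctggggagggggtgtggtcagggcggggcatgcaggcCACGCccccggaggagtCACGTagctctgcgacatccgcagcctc
LDHA: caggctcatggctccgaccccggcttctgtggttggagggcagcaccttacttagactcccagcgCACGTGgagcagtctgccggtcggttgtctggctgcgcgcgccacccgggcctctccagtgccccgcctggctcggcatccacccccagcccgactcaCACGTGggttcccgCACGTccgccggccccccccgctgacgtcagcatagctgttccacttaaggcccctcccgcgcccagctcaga

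Other genes of the pathways, from lists of 101 genes of which 84 were tested, were set beside the members. Over all genes 41.4% passed in the SLC30A10 knockout, 13.7% in the second knockout and 39.3% between the control sets, and the counts are to be read against these shares. Of 34 tested further HIF targets, 18 (52.9%) passed in the SLC30A10 knockout, 4 higher and 14 lower. PLOD2, a collagen lysyl hydroxylase, fell by 0.77 ± 0.07 (adjusted p = 1.24e-09), from 111 ± 8.28 CPM (SD, n = 4) to 64.8 ± 5.16 CPM. PLIN2, a lipid droplet protein, fell by 0.38 ± 0.05, while AK4, a mitochondrial adenylate kinase, rose by 0.72 ± 0.11 and RORA, a nuclear receptor, by 0.69 ± 0.11 (adjusted p = 1.56e-06, 5.15e-06 and 1.46e-05). In the second knockout 6 of 34 (17.6%) passed, 4 higher and 2 lower. EGFR, the epidermal growth factor receptor, fell by 2.08 ± 0.09 (adjusted p = 1.19e-15), from 19.6 ± 1.70 to 4.62 ± 0.358 CPM, and RORA fell by 0.53 ± 0.11. STC2, a secreted glycoprotein, rose by 0.50 ± 0.11 and PPFIA4 by 0.53 ± 0.14. Between the control sets 25 of 34 (73.5%) passed, 23 of them lower in the SLC30A10 set. Named after their values were seen, DDIT4, an inhibitor of mTORC1 signalling, differed by -1.80 ± 0.18 and the mitophagy receptors BNIP3 and BNIP3L by -1.01 ± 0.13 and -0.94 ± 0.11.

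Of 32 tested further glycolysis and pyruvate genes, 10 (31.3%, beside 41.4% of all genes) passed in the SLC30A10 knockout, 8 higher and 2 lower. PDHA1, the X-linked alpha subunit of pyruvate dehydrogenase, rose by 0.36 ± 0.03 and the monocarboxylate transporter SLC16A7 by 1.03 ± 0.13. PDPR, a regulator of pyruvate dehydrogenase phosphatase, fell by 0.27 ± 0.04. PDK4, a sister kinase of PDK1 and PDK3, had 20 to 31 counts in the knockout libraries and 4 to 13 in their controls (1.58 ± 0.321 and 0.457 ± 0.236 CPM), and rose by 1.77 ± 0.31 (adjusted p = 3.44e-05). In the second knockout 4 (12.5%, beside 13.7% of all genes) passed, 2 higher and 2 lower. PDK4 was among the lower, at 0 to 2 counts against 7 to 12 in the controls (adjusted p = 0.000434), and no fold is given at that depth. Its change differed between the knockouts (adjusted p = 1.64e-06). PFKFB2, another kinase of fructose 2,6-bisphosphate, rose in the second knockout by 1.00 ± 0.12 (adjusted p = 4.98e-07) and SLC2A12, a glucose transporter, by 0.80 ± 0.14, while DLAT, a pyruvate dehydrogenase subunit, fell by 0.13 ± 0.04. Between the control sets 6 of 32 (18.8%, beside 39.3% of all genes) passed, 3 in each direction.

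Of 8 tested pentose phosphate genes, 4 (50%, beside 41.4% of all genes) passed in the SLC30A10 knockout, 3 higher and 1 lower, among them H6PD (0.44 ± 0.09) and RPIA (0.24 ± 0.05), which make NADPH or ribose 5-phosphate. PGLS, a lactonase of the pathway, was the lower (-0.20 ± 0.06). In the second knockout 2 (25%, beside 13.7% of all genes) passed, H6PD (0.27 ± 0.08) and TALDO1 (-0.22 ± 0.04). Between the control sets 4 of 8 (50%, beside 39.3% of all genes) passed, 1 higher and 3 lower. Of 10 further genes of the HIF pathway, 7 (70%, beside 41.4% of all genes) passed in the SLC30A10 knockout, 2 higher and 5 lower. ARNT2, a relative of ARNT, fell by 1.27 ± 0.06 (adjusted p = 1.76e-15), and the coactivators CREBBP and EP300 fell by 0.28 ± 0.05 and 0.27 ± 0.04. LIMD1, a scaffold that links EGLN1 and VHL, rose by 0.16 ± 0.04. In the second knockout 1 of 10 (10%, beside 13.7% of all genes) passed, ARNT2, which fell by 0.37 ± 0.06. Between the control sets 2 of 10 (20%, beside 39.3% of all genes) passed, both higher.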

How the data were processed

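Whole-number counts per gene symbol were deposited by the authors for 16 libraries in 1 table, with no normalization. HISAT2, featureCounts and DESeq2, and builds hg38 and GRCh38, are named without versions in the submitters' processing notes. The annotation and the use of strand in counting are not given in the sources used here. A separate deposited table of normalized values was not used. Libraries were poly-A selected and read as 100 bp pairs, per the labels.

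Groups came from the genotype and title in the labels. Counts were scaled with TMM factors and tested in R 4.3.3 with edgeR 4.0.16, using its quasi-likelihood F test with 1 mean per group over all 16 libraries. Genes passing edgeR's expression filter (minimum count 10, minimum total 15) numbered 15569, and p-values were adjusted over all of them with a threshold of 0.05. The common biological coefficient of variation was 0.0497. Libraries of a group differed beyond sampling noise in all 24 pairs (chi-square per degree of freedom 1.64 to 6.85). Single-gene comparisons of SLC30A10 used an exact permutation test with a pseudocount of 0.5 CPM. The scripts were tested on simulated data. Positions and promoters came from RefSeq GRCh38.p14, which placed 90.8% of tested entries, and exon lengths from GENCODE 29.

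The alternatives were other scaling, filters, thresholds, DESeq2 1.42.0, only the libraries compared, both control sets as controls, a replicate block and leaving out each library. Members and gene lists were chosen with earlier results of these data known. Values in every library were given for members that passed in a knockout with a log2 fold change of at least 0.5 and a mean of at least 1 CPM, for the HIF subunits, EGLN1, EGLN3 and VHL, and for isozyme partners. Of each other list, up to 4 genes with the smallest adjusted p per knockout were to be named, where reported here. Other genes shown in full, such as ALDOC, LDHA, KDM3A, VEGFA, ANKRD37, PKM, PGK1, HK1, SLC2A1 and ADM, were chosen after their values were seen. The gene deleted in the second knockout is not reported here.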

Additional observations from a re-analysis of the deposited data

Results flagged for a closer look

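In 15 of 160 sets of 4 libraries, each a member in a group, 1 library stood apart from the other 3 by more than Dixon's critical value for 4 values, where chance gives about 1 in 20, or 8. Library 4 of the second knockout was the low one for 9 members. The distance to the next library, divided by the range of the set, was 0.983 for ANKRD37, 0.886 for GAPDH, 0.971 for GPI, 0.830 for HK1, 0.865 for LDHA, 0.886 for PDK1, 0.869 for PFKFB4, 0.923 for PFKP and 0.944 for PKM. The other 6 were as follows. For ADM, library 2 of the SLC30A10 knockout group was highest at 7.95 CPM, with a distance of 0.845 of the range. For LDHA, library 1 of the SLC30A10 control group was highest at 1648 CPM, with a distance of 0.911 of the range. For P4HA2, library 3 of the SLC30A10 control group was lowest at 22.1 CPM, with a distance of 0.892 of the range. For PDK3, library 1 of the SLC30A10 control group was highest at 54.5 CPM, with a distance of 0.866 of the range. For PFKM, library 1 of the second knockout group was highest at 156 CPM, with a distance of 0.837 of the range. For VHL, library 1 of the second control group was lowest at 123 CPM, with a distance of 0.840 of the range.

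The change in the SLC30A10 knockout differed from that in the second knockout for 15 members, tested as the difference of the log2 fold changes, and 31.3% of all genes passed that test. It was lower in the SLC30A10 knockout for P4HA1 (-0.91), EGLN3 (-0.87), PFKFB3 (-0.77), ADM (-0.48), VEGFA (-0.39), ARNT (-0.38), SLC2A1 (-0.35), GPI (-0.30), ALDOA (-0.23), HIF1AN (-0.20), PFKP (-0.18) and SLC16A1 (-0.17). It was higher for HK1 (0.19), PKM (0.32) and PDK3 (0.43). No cause was tested.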

How the results depend on the processing

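The limits are the 4 libraries per group, that each deletion may be a single line and the depth, at which genes of a few counts such as SLC30A10, CA9 and EGLN2 cannot be compared. Shares in parentheses are those of all genes called in the same fit. Requiring an adjusted p under 0.01 left 11 members (29.6%) in the SLC30A10 knockout and 8 (21.1%) in the difference of the knockouts. Requiring a log2 fold change of at least 0.5 left 5 (12.7%), 3 (13.4%) and 12 (7.77%) members in the SLC30A10 knockout, the difference and the control sets. The second knockout, with 0 members (13.7%), had 1 with size factors (13.7%), 1 with library totals (13.4%), 6 without a filter on low counts (9.46%), 6 against both control sets (19.0%) and 1 without second control library 3 and second knockout library 4 (9.89%). The difference had 26 without the filter (19.2%) and 24 without those 2 libraries (28.5%). Leaving out 1 library at a time gave 15 to 20 members (35.98% to 39.16%) for the SLC30A10 knockout. In the same kind of fit the second knockout had 0 to 3 (9.99% to 13.7%). The difference had 13 to 22 (28.27% to 32.09%) and the control sets 27 to 30 (32.14% to 38.97%). For the level of SLC30A10, leaving out 1 library gave log2 differences of -0.24 to 0.02, the sign turning without knockout library 4 (0.0201). The fit against both control sets also carries the difference between those sets. The cause of these shifts was not tested. No member that was called changed its sign under any alternative run.

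Libraries of different groups share replicate numbers, but same-numbered libraries did not deviate together: over the 3 pairs of groups the correlations ran from -0.10 to 0.12. With the replicate number as a block (replicate block), 20 members passed in the SLC30A10 knockout (41.7%), 2 in the second (13.9%), 19 in the difference (31.4%) and 30 between the control sets (39.7%). The 2 libraries left out together, and with them SLC30A10 control library 3, were chosen after seeing the data.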
